A study of Homo sapiens with 9 samples.

Results

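The 37 genes described here encode aminoacyl-tRNA synthetases of human cells, the enzymes that join each amino acid to its transfer RNA (tRNA). They were chosen by gene symbol, as EPRS1 and the genes named by an amino acid letter, ARS and a final 1, A or B for the cytosol (20 genes) or 2 for mitochondria (17 genes), out of the 59452 gene rows of the series. TARS3, a further threonyl-tRNA synthetase gene, falls outside this rule. The rule used the symbols and no measured value, although it was set with earlier results of these data known. All 37 passed the filter on low counts, and the lowest estimated count of any of them in any library was 217.

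A synthetase recognizes 1 amino acid, activates it with ATP and loads it onto the matching tRNA, so that the ribosome receives the residue the codon asks for. Most amino acids have one synthetase for the cytosol, named with a final 1, and a separate nuclear gene, named with a final 2, for the enzyme imported into mitochondria. KARS1 (lysine) and GARS1 (glycine) supply both compartments and are counted here with the cytosolic set. FARSA and FARSB are the paired subunits of cytosolic phenylalanyl-tRNA synthetase, and EPRS1 joins glutamate and proline activities in one protein. Mitochondria have no glutaminyl-tRNA synthetase of their own and make glutaminyl-tRNA with EARS2 and an amidotransferase. Many cytosolic synthetase genes are known targets of ATF4, the transcription factor of the amino acid response. WARS1, which loads tryptophan, is also known as an interferon-induced gene.

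The cells were MDA-MB-453, an established human breast cancer line that the study uses as a triple-negative model, of wild-type genotype and grown in DMEM with 10% fetal bovine serum. The 3 groups were attached cells given vehicle (DMSO), cells held in suspension on poly-HEMA-coated plates and given vehicle, and suspended cells given 10 µmol/L AT0174, an inhibitor of the tryptophan-degrading enzymes TDO2 and IDO1. Each group had 3 libraries, which the study calls biological replicates, and RNA was taken at 48 hours. The study asked how detachment and inhibition of tryptophan catabolism change gene expression, and tryptophanyl-tRNA synthetase is the other main cellular user of that amino acid. No attached cells were given AT0174, so the action of the inhibitor in attached cells was not measured, and all values belong to 1 cell line.

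Library totals ranged from 36649997 to 48019126 estimated counts. The epithelial markers of this line were expressed, with KRT8 at 889 ± 8.80 and ERBB2 at 1052 ± 27.5 counts per 1000000 (CPM, SD, n = 3) in attached cells. Of 8 genes that mark other cells, PTPRC, CD3E, PECAM1, COL3A1, KRT5 and KRT14 were too low to be tested, CD68 was between 1.32 and 1.86 CPM in the group means, and COL1A1, a collagen gene, fell from 137 ± 10.2 CPM in attached cells to 113 ± 0.944 CPM in suspension with vehicle (edgeR adjusted p = 0.00182). The part of these markers in the results was not tested, and fewer cells of a type cannot be told apart from less RNA per cell in such bulk samples. The synthetase genes together took 0.397% to 0.419% of the counts of attached libraries, 0.443% to 0.446% in suspended vehicle libraries and 0.443% to 0.448% in AT0174 libraries.

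To compare genes with each other, transcripts per 1000000 (TPM), a unit that divides by transcript length, were summed by gene. In attached cells QARS1 (glutamine) was highest at a mean of 232 TPM, followed by NARS1 (asparagine) at 215 TPM, MARS1 (methionine) at 182 TPM and TARS1 (threonine) at 180.4 TPM. These sums include transcripts not annotated as protein coding. Over the 9 libraries, annotated coding transcripts held a mean of 47.8% of the TPM of QARS1, 81.5% for NARS1, 69.7% for MARS1 and 91.8% for TARS1. WARS1 was at 151 TPM. The lowest cytosolic genes were IARS1 (isoleucine) at 37.1 TPM and FARSB at 15.8 TPM, although FARSA, which encodes the other subunit of the same enzyme, was at 149 TPM.

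The mitochondrial genes were lower, with a median of 18.4 ± 0.924 TPM in attached cells against 116 ± 2.58 TPM for the cytosolic genes. IARS2 stood apart at 154 TPM, while VARS2 (valine) was at 36.0 TPM. The lowest were PARS2 (proline) at 3.70 TPM, MARS2 at 6.06 TPM and WARS2 at 7.70 TPM. In every pair of one cytosolic and one mitochondrial gene except that for isoleucine the cytosolic member had the higher mean TPM. The IARS1 to IARS2 ratio was 0.241 ± 0.00174 in attached cells, while it was 2.15 ± 0.0534 for LARS1 to LARS2 (leucine) and 31.8 ± 2.59 for EPRS1 to PARS2. Of the TPM of IARS2, 39.4% was assigned to a transcript with no defined coding sequence, IARS2-204, and 60.5% to the coding transcript IARS2-201.

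Summed over each set, the cytosolic genes held 2257 ± 48.8 TPM and the mitochondrial genes 475 ± 19.1 TPM in attached cells. The ratio of the sums was 4.75 ± 0.144 in attached cells, 4.77 ± 0.106 in suspended vehicle cells and 4.85 ± 0.119 with AT0174, with overlapping libraries in all 3 groups. TPM sums to a fixed total in each library and therefore moves with all other genes, so differences between conditions are given below in CPM scaled by the trimmed mean of M-values (TMM).

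**Figure D1:**
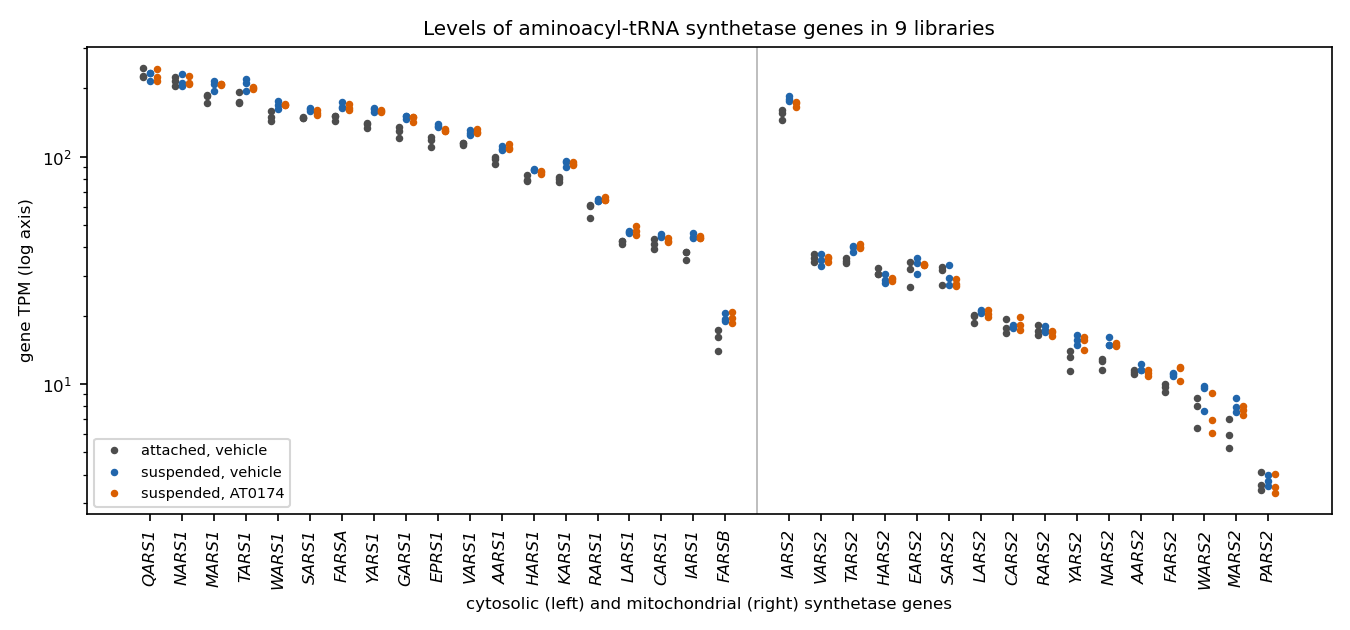
Gene TPM on a log axis for cytosolic genes (left) and mitochondrial genes (right), 35 in all, each set ordered by its mean in attached cells, with 1 point per library and colors for the 3 conditions. The cytosolic genes run from QARS1 at 232 TPM to FARSB at 15.8 TPM and the mitochondrial genes from IARS2 at 154 TPM to PARS2 at 3.70 TPM, and for most genes the 3 conditions lie close together. Gene TPM includes transcripts that are not annotated as protein coding.

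Promoter sequence was examined because ATF4 and interferon-activated factors act on synthetase genes through short elements near the start site. RefSeq promoter windows (GRCh38.p14), of 250 bases before to 50 after the start, were at hand for 30 members, 16 cytosolic and 14 mitochondrial. The letters TGATGNAA, the core of C/EBP-ATF response elements, were found on either strand in 7 of the 16 cytosolic genes (43.8%: AARS1, CARS1, GARS1, IARS1, MARS1, NARS1 and TARS1). Among the mitochondrial genes 1 of 14 (7.14%, YARS2) held them. They were in 4.46% of all genes with a window, 2.61% of the 10722 tested genes with a window and 3.62% of all 35093 windows. In 6 of the 7 cytosolic genes, all but AARS1, the match began between 33 bases before and 14 bases after the annotated start. The sites of the 3 genes that were also higher in suspension (IARS1, GARS1 and YARS2) and of 2 that did not pass the test (TARS1 and MARS1) are shown with the match in capitals, read along the gene's strand, where TTGCATCA is the same core on the opposite strand.
IARS1, chr9:92293692-92293721, minus strand: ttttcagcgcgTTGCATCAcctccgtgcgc
GARS1, chr7:30594834-30594863, plus strand: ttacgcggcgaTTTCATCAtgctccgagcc
YARS2, chr12:32756076-32756105, minus strand: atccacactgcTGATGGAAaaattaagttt
TARS1, chr5:33440956-33440985, plus strand: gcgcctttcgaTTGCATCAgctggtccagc
MARS1, chr12:57488053-57488082, plus strand: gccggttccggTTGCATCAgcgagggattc
Genes with and without a call held the same core, and a match is a description of sequence, not of binding.

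The core of the interferon-stimulated response element, TTCNNTTTC on either strand, was found in 3 of 16 cytosolic genes with a window (18.8%: GARS1, IARS1 and WARS1). Among the mitochondrial genes it was found in 1 of 14 (7.14%, EARS2). It was in 9.86% of all genes with a window, 8.66% of the tested genes with a window and 8.11% of all windows. The WARS1 site is shown because this gene is the known interferon-induced member, with the match in capitals.
WARS1, chr14:100375384-100375413, minus strand: ttttcagaaggGAAACTGAAagaaagaggg
It lies in the inner of 2 WARS1 promoter windows, whose transcripts carried between 12.7% and 19.6% of WARS1 TPM in the 9 libraries, while those of the outer window carried between 76.3% and 83.4%.

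In suspension the synthetase genes shifted little. Against attached cells, 10 of the 37 rose, 1 fell and 26 did not pass an adjusted p of 0.05 (edgeR quasi-likelihood test, Benjamini-Hochberg over 15528 genes). The cytosolic genes that rose were FARSB, IARS1, VARS1, KARS1, YARS1 and GARS1, between 1.08-fold and 1.15-fold, and no cytosolic gene fell. Of the mitochondrial genes 4 rose, between 1.09-fold and 1.23-fold, among them MARS2, YARS2 and IARS2, and HARS2 fell to 0.882-fold. Over all tested genes 21.2% were called, 10.4% higher and 10.8% lower, and among the 10345 genes expressed at or above the lowest member 15.1% were called higher.

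The median log2 fold change was 0.06 over the 20 cytosolic genes and 0.05 over the 17 mitochondrial genes, against -0.000253 over all tested genes. The value was higher in suspension for 17 of 20 cytosolic and 10 of 17 mitochondrial genes. The count of 11 calls depended on single libraries. It was 2 without attached replicate 3 or suspended vehicle replicate 2, 3 without suspended vehicle replicate 1, 5 without suspended vehicle replicate 3, 6 without attached replicate 2 and 7 without AT0174 replicate 3, and IARS1 and HARS2 were the genes called in each of the 18 alternatives. Attached replicate 3 had the lowest share of counts in synthetase genes (0.397%) and the lowest TMM factor (0.973).

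**Figure D2:**
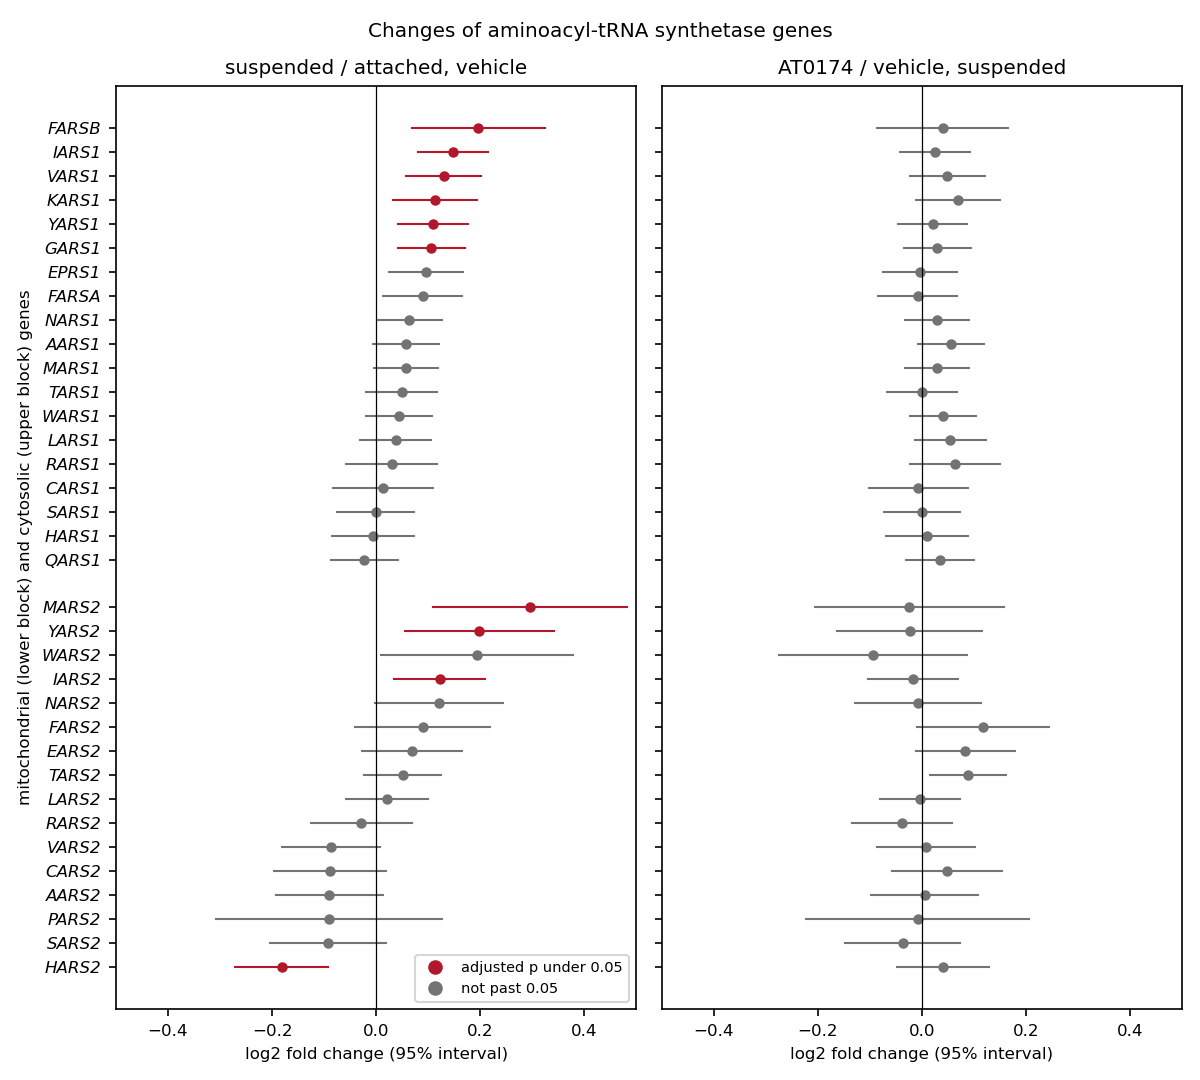
Log2 fold changes with 95% intervals of 35 of the genes for suspended against attached cells, both with vehicle (left), and AT0174 against vehicle, both suspended (right), with cytosolic genes above and mitochondrial genes below. Red marks an adjusted p under 0.05. All red genes are in the left panel, with HARS2 to the left of 0 and the others to the right of it, and no gene lies farther from 0 than MARS2 at 0.30.

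IARS1, which loads isoleucine (chr9:92210207-92293854, minus strand), had the smallest adjusted p. Its attached libraries held 119.1, 120.0 and 115.5 CPM, the suspended vehicle libraries 130.9, 133.9 and 128.0 CPM, and the AT0174 libraries 132.0, 135.5 and 132.3 CPM. The suspended groups lay above all attached libraries, and the log2 fold change between vehicle groups was 0.15 (SE 0.03, edgeR adjusted p = 0.00636). The coding transcript IARS1-203 had 17.8, 19.9 and 18.3 TPM attached, 24.0, 23.6 and 19.9 in suspended vehicle and 16.9, 18.3 and 25.5 with AT0174. IARS1-236, annotated for nonsense-mediated decay, had 8.27, 9.40 and 8.24, then 13.4, 14.1 and 13.3, then 13.7, 13.6 and 10.6 TPM. The part of each transcript in the change of the gene was not tested.

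VARS1, the valine enzyme (chr6:31777518-31795752, minus strand), had 245.6, 248.4 and 237.0 CPM in attached libraries. It had 261.7, 276.8 and 261.2 CPM in suspension with vehicle, and 280.3, 276.1 and 271.1 CPM with AT0174. The vehicle groups did not overlap (log2 fold change 0.13, SE 0.03, edgeR adjusted p = 0.0159). When counts were rebuilt from TPM, which removes differences in transcript length, the log2 fold change of VARS1 was 0.06 and the adjusted p 0.237. The call was also lost without attached replicate 3 (edgeR adjusted p = 0.0603) or suspended vehicle replicate 2 (0.0694).

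YARS1, the tyrosine enzyme (chr1:32775237-32818031, minus strand), had 224.5, 229.6 and 224.9 CPM in attached libraries. Suspended vehicle libraries had 252.4, 243.3 and 236.6 CPM, and AT0174 libraries 246.5, 250.2 and 246.3 CPM. All suspended libraries were above all attached ones (log2 fold change 0.11, SE 0.03, edgeR adjusted p = 0.0257). The call was lost without attached replicate 1 or 3 or suspended vehicle replicate 1 or 2 (edgeR adjusted p from 0.0611 to 0.0759).

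FARSB, the beta subunit of the phenylalanine enzyme (chr2:222566899-222656092, minus strand), rose 1.15-fold. Its attached libraries held 82.6, 77.0 and 68.9 CPM, the suspended vehicle libraries 86.1, 90.8 and 84.9 CPM, and the AT0174 libraries 93.1, 91.1 and 84.9 CPM. The attached libraries were widely spread, with the lowest in replicate 3, and the groups did not overlap (log2 fold change 0.20, SE 0.06, edgeR adjusted p = 0.0329). Without attached replicate 3 the log2 fold change was 0.13 (edgeR adjusted p = 0.118), close to the 0.13 of IARS1 in the same fit, and the call was also lost without attached replicate 2 or any 1 of the suspended vehicle libraries. Its partner FARSA was 1.06-fold in suspension and did not pass the test (edgeR adjusted p = 0.0881). EPRS1, the joint glutamate and proline enzyme, was also just outside the threshold at 1.07-fold (edgeR adjusted p = 0.0550).

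GARS1 and KARS1, which serve the cytosol and mitochondria, both rose 1.08-fold. GARS1 (chr7:30580533-30634033, plus strand) had 218.0, 212.5 and 205.6 CPM in attached libraries, 228.8, 230.0 and 225.9 CPM in suspension with vehicle, and 233.5, 230.2 and 235.4 CPM with AT0174. Its vehicle groups did not overlap (log2 fold change 0.11, SE 0.03, edgeR adjusted p = 0.0256).

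KARS1 (chr16:75627474-75648643, minus strand) had 100.4, 103.0 and 95.2 CPM in attached libraries, 109.2, 108.7 and 105.0 CPM in suspension with vehicle, and 116.4, 110.2 and 112.2 CPM with AT0174. The 3 groups stood apart in that order, and the difference between the vehicle groups was close to the threshold (log2 fold change 0.11, SE 0.04, edgeR adjusted p = 0.0490). Its 2 leading annotated coding transcripts were KARS1-201, with a mean of 80.8% of the gene's TPM, and KARS1-202, with 5.53%, so 1 transcript carried most of the signal in every condition. GARS1-201 likewise carried a mean of 80.9% of GARS1 TPM. KARS1 passed the threshold in 9 and GARS1 in 11 of the 18 alternatives. With 1 library left out, the edgeR adjusted p of KARS1 reached 0.179 and that of GARS1 0.0908, both without attached replicate 3, and both calls were also lost without any 1 of the suspended vehicle libraries.

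Of the mitochondrial genes, MARS2, the methionine enzyme and a gene with a single annotated transcript (chr2:197705369-197708395, plus strand), changed most. Its attached libraries held 14.40, 12.4 and 11.15 CPM, the suspended vehicle libraries 15.6, 16.6 and 14.36 CPM, and the AT0174 libraries 15.1, 14.9 and 15.9 CPM. The highest attached library, replicate 1, just exceeded the lowest suspended vehicle library, so the groups overlapped although the model passed the gene (log2 fold change 0.30, SE 0.09, edgeR adjusted p = 0.0291). It did not pass without attached replicate 2 or 3 or suspended vehicle replicate 1 or 2 (edgeR adjusted p from 0.0672 to 0.114).

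IARS2, the most abundant mitochondrial member (chr1:220094132-220148041, plus strand), had 250.4, 246.3 and 222.9 CPM in attached libraries, 257.7, 263.2 and 262.1 CPM in suspension with vehicle, and 261.5, 255.0 and 257.4 CPM with AT0174. Attached replicate 3 was lowest, as it was for FARSB, and the log2 fold change of 0.12 (SE 0.04, edgeR adjusted p = 0.0468) was 0.07 without it (adjusted p = 0.141). IARS2 passed in 9 of the 18 alternatives. The call was also lost without attached replicate 2, without any 1 suspended vehicle or AT0174 library, and with only the 6 libraries of the contrast. YARS2, the mitochondrial tyrosine enzyme, was at the threshold itself, with a rise of 1.15-fold and an edgeR adjusted p of 0.04999, and passed in 5 of the 18 alternatives.

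HARS2, the mitochondrial histidine enzyme (chr5:140691430-140699305, plus strand), was the member that fell. Attached libraries held 46.9, 45.9 and 46.9 CPM, suspended vehicle libraries 42.1, 42.1 and 39.0 CPM, and AT0174 libraries 41.3, 42.8 and 42.5 CPM. All 6 suspended libraries were below all 3 attached ones (log2 fold change between vehicle groups -0.18, SE 0.04, edgeR adjusted p = 0.00889). HARS2 overlaps the start of its neighbor HARS1 (chr5:140673035-140691537, minus strand) on the opposite strand, from 140691430 to 140691537. HARS1 is the cytosolic histidine gene and a close relative in sequence. Whether reads were divided between the genes was not tested. HARS1 itself had a log2 fold change of -0.01 (edgeR adjusted p = 0.929), and the HARS1 to HARS2 TPM ratio was 2.57 ± 0.156 in attached cells, 3.04 ± 0.143 in suspension with vehicle and 2.96 ± 0.0379 with AT0174.

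**Figure D3:**
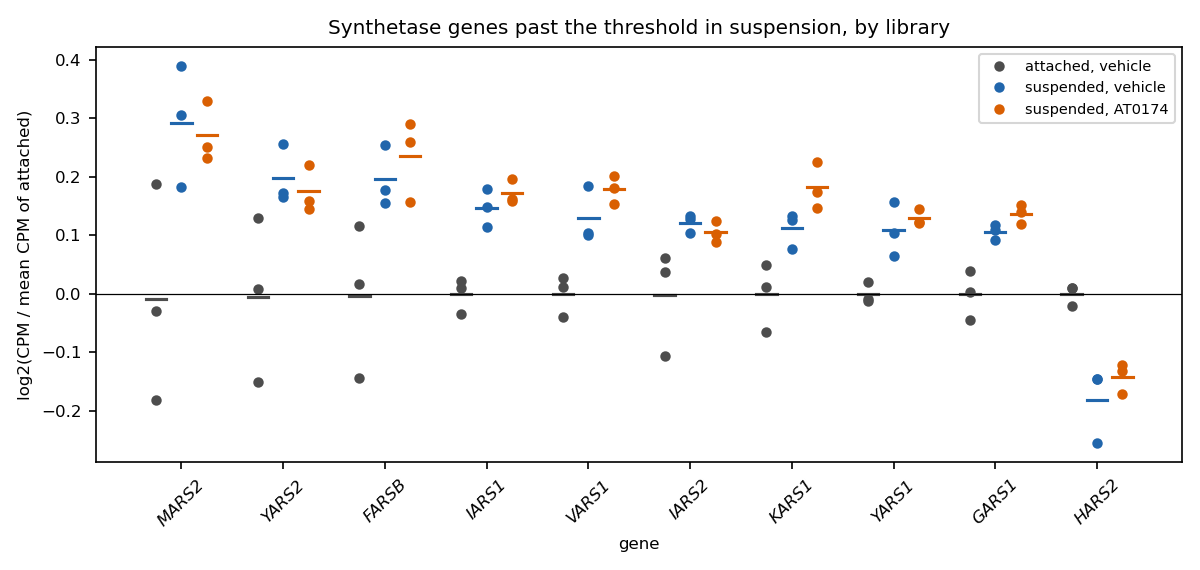
The log2 ratio of CPM to the mean of the attached libraries for 10 members past the threshold in suspension, with 1 point per library and a bar at the mean of the log2 ratios. The AT0174 libraries (orange) lie near the suspended vehicle libraries (blue), and the attached libraries of MARS2, YARS2 and FARSB are the most widely spread.

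The other cytosolic genes ranged in log2 fold change from -0.02 for QARS1 to 0.10 for EPRS1, and SARS1 (serine) was nearest to 0 at -0.00118. Among the other mitochondrial genes SARS2, PARS2, AARS2, CARS2 and VARS2 had values between -0.0925 and -0.0860, none past the test, and the edgeR adjusted p of these 5 genes ran from 0.184 to 0.566. The intervals of all 37 genes allowed changes between 0.808-fold (the lower bound of PARS2) and 1.397-fold (the upper bound of MARS2). Replicates of cytosolic genes were close, with a median coefficient of variation of 2.41% in attached, 1.81% in suspended vehicle and 1.58% in AT0174 libraries. For mitochondrial genes the medians were 5.63%, 3.07% and 3.05%.

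With AT0174 no synthetase gene passed the test in suspended cells. Of the 37, 0 passed an adjusted p of 0.05 in edgeR, and 0 passed in DESeq2 or limma-voom, while 0.779% of all tested genes were called, 0.522% higher and 0.258% lower. At an unadjusted p under 0.05 there was 1 gene, TARS2, the mitochondrial threonine enzyme. Its suspended vehicle libraries held 61.3, 61.4 and 60.2 CPM and its AT0174 libraries 65.6, 65.2 and 63.8 CPM, which did not overlap. The difference was 1.06-fold and had an edgeR adjusted p of 0.416.

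The median log2 fold change with AT0174 was 0.03 over cytosolic genes and -0.01 over mitochondrial genes, against 0.00133 over all genes. The value was higher with AT0174 for 17 of 20 cytosolic genes, with KARS1 at 0.07, while FARSA was at -0.01. Of the mitochondrial genes 7 of 17 had the higher value, from -0.09 for WARS2 to 0.12 for FARS2. The intervals of the 37 genes allowed no change below 0.827-fold (WARS2) or above 1.18-fold (FARS2). Both comparisons share the suspended vehicle libraries, so a low or high value there moves the 2 in opposite directions.

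WARS1 (chr14:100333790-100376805, minus strand), which uses the amino acid that TDO2 and IDO1 degrade, was nearly level. Its attached libraries held 149.7, 155.1 and 148.2 CPM, the suspended vehicle libraries 158.2, 154.5 and 154.2 CPM, and the AT0174 libraries 160.2, 159.4 and 160.7 CPM. Suspended vehicle overlapped attached cells (1.03-fold, 95% interval 0.986 to 1.08, edgeR adjusted p = 0.326). The AT0174 libraries lay above the suspended vehicle libraries but did not pass the test (1.03-fold, interval 0.984 to 1.07, edgeR adjusted p = 0.753). Changes below 0.984-fold or above 1.08-fold lay outside both intervals.

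WARS2 (chr1:119031216-119140654, minus strand), the mitochondrial tryptophan enzyme, was an order of magnitude lower and varied more. It had 12.3, 11.6 and 10.8 CPM in attached libraries, 12.02, 14.35 and 13.2 CPM in suspension with vehicle, and 13.5, 11.25 and 12.4 CPM with AT0174. All 3 groups overlapped, at 1.14-fold for suspension (95% interval 1.01 to 1.30, edgeR adjusted p = 0.127) and 0.937-fold for AT0174 (interval 0.827 to 1.06, edgeR adjusted p = 0.821). The WARS1 to WARS2 ratio in TPM was 19.8 ± 2.27 in attached cells, 18.9 ± 2.13 in suspension with vehicle and 23.6 ± 4.65 with AT0174. WARS1 made up 5.51% ± 0.190 of all synthetase TPM in attached cells, 5.57% ± 0.174 in suspension with vehicle and 5.68% ± 0.0503 with AT0174.

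**Figure D4:**
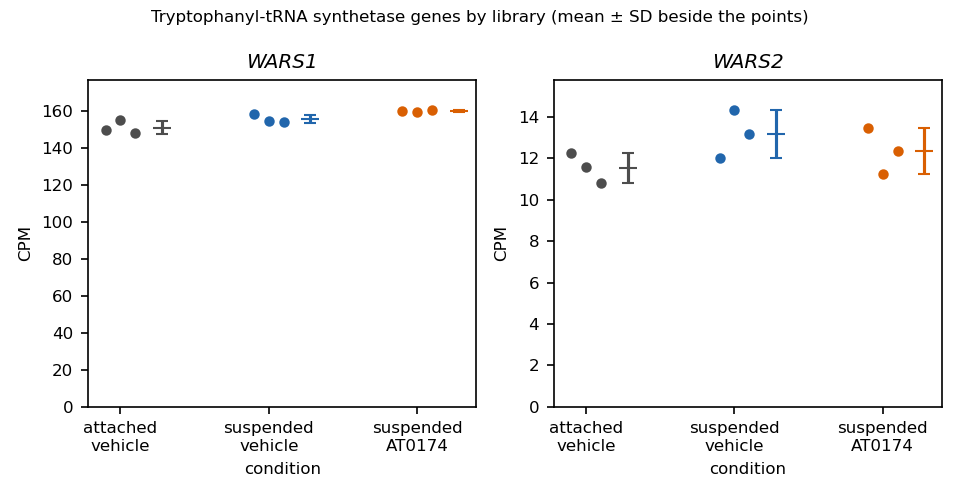
CPM of WARS1 (left) and WARS2 (right) in each of the 9 libraries, with the mean and SD of each condition beside the points and axes that start at 0. WARS1 lies between 148.2 and 160.7 CPM in all libraries and WARS2 between 10.8 and 14.35 CPM.

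WARS1 had 44 transcripts in the files. The most abundant was WARS1-203, a coding transcript from the outer promoter, with a mean of 34.7% of WARS1 TPM, followed by WARS1-239, which has no defined coding sequence, with 26.97%. Transcripts annotated as protein coding held 55.5% of WARS1 TPM. For EARS2, the mitochondrial glutamate enzyme, and LARS1, the cytosolic leucine enzyme, the leading transcript was one annotated for nonsense-mediated decay, with 56.7% and 37.0% of the gene's TPM. Shares of WARS1 transcripts differed between replicates, and some also between groups. WARS1-231 was listed at 0 in suspended vehicle replicates 1 and 2 and at 3.89% in replicate 3. Its share was between 6.98% and 14.4% in attached libraries and between 8.07% and 11.5% with AT0174. WARS1-239 went the other way, with 36.2%, 35.2% and 28.1% in suspended vehicle libraries. In the attached and AT0174 libraries it had between 20.9% and 27.6%. These differences in share were not tested.

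The scaffold of the multisynthetase complex, which holds several cytosolic synthetases together, has 3 further proteins. AIMP2 rose 1.13-fold in suspension (34.1 ± 1.63 to 38.7 ± 0.961 CPM, edgeR adjusted p = 0.0138) and EEF1E1 1.15-fold (25.7 ± 1.23 to 29.4 ± 0.351 CPM, adjusted p = 0.0237). AIMP1 did not pass (log2 fold change -0.02, edgeR adjusted p = 0.749). None of the 3 passed with AT0174. Of all tested genes, 10.4% were called higher in suspension and 0.779% were called in either direction with AT0174. In suspension 1 of the 3 passed without any 1 attached library or without suspended vehicle replicate 3, and 0 passed without suspended vehicle replicate 2.

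The mitochondrial amidotransferase subunits QRSL1, GATB and GATC and the formyltransferase MTFMT, which complete glutaminyl- and formylmethionyl-tRNA, had 0 of 4 called in both comparisons. The shares of all tested genes called were 21.2% in suspension and 0.779% with AT0174. Of 9 tested mitochondrial translation factors 0 were called in either comparison, with TSFM nearest in suspension at 1.11-fold (edgeR adjusted p = 0.0608). Of 9 genes that act around tRNA charging, 1 was called in suspension and 0 with AT0174. That gene was AARSD1, which clears alanine tRNA that carries the wrong amino acid, and it fell from 14.04 ± 0.813 to 11.4 ± 0.887 CPM (edgeR adjusted p = 0.0175), a call lost without attached replicate 3 or suspended vehicle replicate 1 or 3. XPOT, the tRNA exporter, and TARS3 had edgeR adjusted p of 0.877 and 0.666 in suspension.

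Of 6 cytosolic elongation factor genes, which carry charged tRNA to the ribosome or move it along, 3 rose in suspension and 0 fell. Among all tested genes 10.4% were called higher, or 15.1% of those expressed at or above the lowest member. EEF1A1 rose 1.12-fold (edgeR adjusted p = 0.00369), EEF2 1.11-fold (adjusted p = 0.00379) and EEF1G 1.08-fold (adjusted p = 0.0185), and the median log2 fold change of the 6 was 0.10. With AT0174 none was called, and EEF1A2 was nearest at 1.11-fold (edgeR adjusted p = 0.0712).

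A list of 27 tested genes of the ATF4 response, of which the synthetases were kept out, had 10 called higher and 0 lower in suspension. Over all tested genes 10.4% were called higher. The median of the log2 fold changes of the list was 0.12, and 8 of the 27 had the lower value in suspension, down to -0.28. With limma-voom, and with DESeq2 size factors in edgeR, 10 were called higher and 1 lower. SLC7A11, a cystine transporter, rose from 23.8 ± 0.543 to 35.1 ± 0.232 CPM (edgeR adjusted p = 3.51e-06), and GDF15, a stress-induced secreted factor, from 15.1 ± 0.742 to 25.4 ± 1.15 CPM (adjusted p = 3.51e-06). SLC7A5, a transporter of large neutral amino acids that include tryptophan, rose by 0.35 on the log2 scale (edgeR adjusted p = 0.000733) and SLC7A1, a transporter of basic amino acids, by 0.23 (adjusted p = 0.000861). ATF4 mRNA itself had a log2 fold change of -0.01 (edgeR adjusted p = 0.883), and its target ASNS, asparagine synthetase, 0.08 (adjusted p = 0.305). With AT0174, SLC7A11 (log2 fold change 0.65) and GDF15 (0.64) rose again and the other 25 did not pass, while 0.522% of all tested genes were called higher.

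Of the 8 members whose promoter window held the C/EBP-ATF core, 3 were called higher in suspension (GARS1, IARS1 and YARS2), and the median over the 8 was 0.06 (log2 fold change). Of the 22 members with a window but no match, 4 were called higher and 1 lower, with a median of 0.05. Over all tested genes 10.4% were called higher, or 15.1% of those expressed at or above the lowest member, and no test was made of the difference between members with and without a match.

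Interferon-induced genes are given because WARS1 belongs to that program in many cells. Of 16 tested, 5 fell and 1 rose in suspension, while 10.8% of all tested genes were called lower and 10.4% higher. The median of the 16 log2 fold changes was -0.22. Attached replicate 2 stood apart in these genes, with 21.7 CPM of IFIT1 against 9.18 and 8.42 CPM in the other attached libraries and 30.2 CPM of IFI6 against 19.0 and 17.2 CPM. Without it 2 fell and 1 rose in suspension and the median was -0.12, and without suspended vehicle replicate 1, 2 or 3 the number that fell was 3, 3 and 2. With AT0174, 3 of the 16 fell and 0 rose, while 0.258% of all tested genes were called lower and 0.522% higher. The median of the 16 was -0.49. Leaving out 1 library gave between 1 gene (without any 1 AT0174 library or suspended vehicle replicate 1 or 2) and 7 genes (without attached replicate 2) that fell, and all 16 values were lower in each of these fits. IFI6 fell from 18.7 ± 0.664 to 7.14 ± 0.854 CPM with AT0174 (edgeR adjusted p = 0.00173), and IFIT1 (log2 fold change -1.99, adjusted p = 0.0355) and IFIT2 (-1.24, adjusted p = 0.0424) also fell. In suspension IRF9 fell from 20.5 ± 6.01 to 10.3 ± 1.01 CPM (edgeR adjusted p = 0.00412), with 27.1 CPM in attached replicate 2. WARS1 did not pass in either comparison and its values, 1.03-fold in both, were on the higher side.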

How the data were processed

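The members and gene lists were chosen with earlier results of these data known. Per the study's methods and the labels, the authors trimmed reads with Cutadapt 3.4 in Trim Galore 0.6.7, aligned them with STAR 2.7.9a to GRCh38 with Ensembl 104, quantified transcripts with Salmon 1.10.1 and summed them by gene. The deposited gene table holds estimated counts with no normalization, and the deposited transcript tables hold estimated counts and TPM, which the authors' Salmon run scales by transcript length to a fixed total. The library kit named in the labels differs from that in the methods, and whether reads were counted by strand is not given in the sources used here.

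Estimated counts were rounded, filtered with filterByExpr by group (15528 genes) and scaled by TMM (factors 0.973 to 1.02). All 9 libraries entered 1 edgeR 4.0.16 quasi-likelihood fit (R 4.3.3) with group as the only term, and p-values were adjusted by Benjamini-Hochberg over all genes. The study used limma, which is an alternative here (limma-voom 3.58.1), beside DESeq2 1.42.0. Intervals are 95% intervals of the fit. The procedure was tested on simulated data. Library totals of 36649997 to 48019126 gave a median SE of 0.04 (log2) per member. Positions are from GENCODE 44 and promoters from RefSeq. All members are accounted for, and libraries are given singly for WARS1, WARS2, KARS1, GARS1 and up to 10 members per contrast with the smallest adjusted p under 0.05. Up to 4 genes of smallest p were named from each other list, and KRT8, ERBB2, ATF4, ASNS, XPOT, TARS3 and AIMP1 were added after their values were seen. MTRFR is not analysed here. Some members and markers enter the counts, medians and sums but are not reported singly here.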

Additional observations from a re-analysis of the deposited data

How the results depend on the processing

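In suspension, 11 members were called, 10 of them higher. At an adjusted p under 0.01 there were 2 and 1, with only the 6 libraries of the contrast 5 and 4, and with counts rebuilt from TPM 5 and 4. Leaving out 1 library gave 2 to 10 calls, 1 to 9 of them higher. DESeq2 and limma-voom each gave 11. The mitochondrial median log2 fold change was 0.0126 with counts rebuilt from TPM and 0.0186 to 0.0702 when 1 library was left out. Library totals without TMM, an alternative chosen after seeing the data, shifted the median of all genes by 0.0476 in suspension and by -0.0215 with AT0174. They gave 16 calls and medians of 0.107 (cytosolic) and 0.0983 (mitochondrial) in suspension, and of 0.00818 and -0.0291 with AT0174, where rebuilt counts gave a mitochondrial median of 0.00921.

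With AT0174 each of the 18 alternatives gave 0 calls among the members. The sign of a value near 0 changed for YARS1 (-0.00400 without suspended vehicle replicate 3, in a range of -0.00400 to 0.0411 over single libraries left out, and -0.000176 without TMM) and MARS2 (0.0223 without suspended vehicle replicate 2, range -0.0808 to 0.0223). WARS1 was not called in any alternative (adjusted p 0.0524 to 0.587 in suspension, 0.701 to 0.979 with AT0174). The cause of these changes was not tested.

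Samples that share a replicate number did not deviate together (correlations -0.0652 to 0.0526), so the numbers were not taken to pair them. A replicate block gave 12 calls, the 11 and EPRS1, in suspension and 0 with AT0174. PARS2, the member with the lowest CPM, had the largest SE, 0.0998 on the log2 scale.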
